A study of Mus musculus with 6 samples.

Results

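Lrrc30, Fam107a, E230001N04Rik, Banp, Fam84b, 1190002N15Rik and Fam214a are 7 mouse genes with scant known function in muscle, out of 54532 genes in the deposited table. They were selected on their fold change between Igf2 conditional knockout (cKO) and control muscle in these same libraries, and for how little is known of them in muscle. Their differences between the genotypes are therefore given as a description. Calls from the fit over all genes are quoted for them only to place them among the tested genes, and support nothing. The members are the rows that carry these gene names, and each name occurs in 1 row.

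The series sequenced muscle RNA of 3 control and 3 Igf2 cKO mice, each as 1 library, to ask what the loss of Igf2, which encodes a growth factor of fetal life, does to muscle. Mice of both groups had a C57BL/6 background and loxP sites flanking exon 2 of both Igf2 alleles (Igf2f/f). The Igf2 cKO mice were Mck-Cre+; Igf2f/f, with Cre recombinase driven by the muscle creatine kinase promoter, which is active in striated muscle fibres. Controls were their Mck-Cre-; Igf2f/f littermates, so neither group is wild type, and no group carried Cre without the floxed alleles. The labels give neither the muscle, the age nor the sex. Cells that do not use the Mck promoter, such as endothelial cells, fibroblasts and Schwann cells, keep Igf2.

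The genes code for unrelated products. Lrrc30 encodes a protein of leucine-rich repeats, a fold that often binds other proteins. Fam107a (also DRR1) encodes an actin-binding protein best known from brain, where stress and glucocorticoids induce it. Banp (also SMAR1) encodes a nuclear protein with a BEN domain, which binds CG-rich promoter elements when they are unmethylated and has been described with histone deacetylase complexes. Fam84b, renamed Lratd2, encodes a protein with a domain related to lecithin retinol acyltransferase (LRAT). 1190002N15Rik, renamed Dipk2a, encodes a kinase-like protein of the secretory pathway, also described as a secreted factor (HASF) that acts on heart muscle cells. Fam214a is a gene of the atos family, and E230001N04Rik is a noncoding RNA.

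Promoter sequences are shown first, because the genes differ widely in CG content there. RefSeq promoter windows (build GRCm38.p6, each 300 bases, from 250 before to 50 after an annotated start) were matched for 5 of the 7 genes. Printed here are the 250 bases before a start for 2 genes that were higher and 2 that were lower in Igf2 cKO muscle, 5′ to 3′ on the strand of the gene. The stretches are those of Lrrc30 (chr17:67632724-67632973, minus strand), an internal start of Fam107a (chr14:8309780-8310029, minus strand), 1190002N15Rik (chr9:94538082-94538331, minus strand) and the outermost start of Fam214a (chr9:74952630-74952879, plus strand). Capitals mark matches, on either strand, to CAGCTG (an E-box read by myogenic factors), CACGTG (another E-box), AGAACA (a half-site of the glucocorticoid receptor) or CGCG.
Lrrc30: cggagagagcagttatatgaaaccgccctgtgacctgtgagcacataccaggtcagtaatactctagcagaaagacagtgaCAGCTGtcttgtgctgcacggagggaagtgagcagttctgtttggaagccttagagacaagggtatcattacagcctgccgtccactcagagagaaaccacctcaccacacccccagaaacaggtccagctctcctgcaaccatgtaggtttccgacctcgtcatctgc
Fam107a: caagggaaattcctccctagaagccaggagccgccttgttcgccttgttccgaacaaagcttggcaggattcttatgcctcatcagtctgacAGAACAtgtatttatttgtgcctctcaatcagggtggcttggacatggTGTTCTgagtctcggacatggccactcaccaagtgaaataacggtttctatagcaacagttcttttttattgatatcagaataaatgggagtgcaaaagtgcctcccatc
1190002N15Rik: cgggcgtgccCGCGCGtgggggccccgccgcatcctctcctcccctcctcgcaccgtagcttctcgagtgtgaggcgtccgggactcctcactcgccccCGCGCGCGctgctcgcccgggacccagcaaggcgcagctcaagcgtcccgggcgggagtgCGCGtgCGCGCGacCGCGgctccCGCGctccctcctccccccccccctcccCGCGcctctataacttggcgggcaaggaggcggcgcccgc
Fam214a: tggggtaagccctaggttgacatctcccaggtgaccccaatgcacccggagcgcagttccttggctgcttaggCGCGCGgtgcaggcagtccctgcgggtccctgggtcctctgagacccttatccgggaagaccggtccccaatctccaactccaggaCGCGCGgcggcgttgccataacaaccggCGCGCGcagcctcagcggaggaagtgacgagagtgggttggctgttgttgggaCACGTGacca

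The window of 1190002N15Rik lay near the top of the genome in CG content. Over its whole 300 bases it held 43 CG dinucleotides, more than 97.4% of the 32851 windows in the RefSeq table, with 12 matches to CGCG, some of which overlap each other. The Lrrc30 window held 7 CG dinucleotides, more than 47.9% of windows, and no CGCG, which 38.0% of windows hold. The 3 windows of Fam214a held 21, 37 and 11 CG dinucleotides, and the E230001N04Rik window held 12. Fam107a had 15 at its outermost start, with 2 matches to CGCG, and 7 at each of a pair of internal starts that lie 2 bases apart. The printed Fam107a stretch is thus poorer in CG than its outermost window.

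Matches to the longer motifs were few. CAGCTG, which occurs in 16.3% of all windows, stood 169 bases before the Lrrc30 start, and at 148 and 36 bases before the start of the third Fam214a window. Both internal windows of Fam107a held AGAACA or its reverse complement TGTTCT at 2 places, while the outermost Fam107a window, not printed, did not hold it. The third Fam214a window held it at 1 place, 176 bases before its start, and 18.97% of all windows hold it at least once. These motifs were thus found both in genes that were higher and in a gene that was lower. The element CACGTG, found in 7.15% of windows, was in each of the 3 Fam214a windows. The first and second window share 1 site, 10 bases before the outermost start. None of the windows of these 5 genes held TGACGTCA (1.79% of all windows), TATAAA (13.6%) or the element that BANP binds (0.466%), which includes CGCG. A match is only a run of letters, and binding was not measured.

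Total counts lay between 16184371 and 17905203 per library, and 14867 genes passed the low-count filter of the fit, all 7 genes among them. The targeted gene was low in both groups, with 60, 43 and 39 Igf2 counts in the controls (replicates 1 to 3) against 33, 37 and 42 in the knockouts. That count takes in all exons and all cell types, and gives no check of the genotype. Fibre markers were abundant and 10 of 10 were tested, with 0 called by edgeR. Their summed level was 109900 to 130400 CPM (counts scaled to a common library size) in controls and 88600 to 107300 CPM in Igf2 cKO muscle, without overlap. This sum weighs abundant genes most, and the list did not move as one. Myh4 had means of 38320 CPM (control) and 26330 CPM (Igf2 cKO) without overlap, and Ckm and Mylpf were also lower without overlap. The groups overlapped for the other fibre markers, and Myh1, Myh2 and Des had higher means in Igf2 cKO muscle. The 5 blood markers were also lower without overlap, at 449.4 to 617.4 CPM in controls against 312.9 to 358.0 CPM. Of 6 adipocyte markers the sum reached 969.9 CPM in Igf2 cKO replicate 3, with 441.2 to 614.7 CPM in the other libraries. Sums of the other lists overlapped between the groups (endothelial, smooth muscle and pericyte, Schwann and nerve, fibroblast, macrophage and leukocyte, satellite cell, cardiac muscle). Single markers in them lay apart without overlap. The smooth muscle marker Acta2 had means of 135.8 CPM (control) and 236.6 CPM (Igf2 cKO, adjusted p = 0.0956 by edgeR), and Myh11 was also higher. The endothelial Kdr, Cldn5 and Egfl7 were lower, with log2 fold changes of -0.60, -0.61 and -0.26. The groups overlapped for Rgs5, Cspg4, Kcnj8, Pecam1, Cdh5 and Tie1. The Schwann and nerve sum ranged from 240.9 to 1073 CPM and was highest in Igf2 cKO replicate 1. Of the cardiac markers Nppa had 0 counts in all libraries. The part of these shifts in the results below was not tested, and in whole muscle a change in the number of cells of a type cannot be told apart from a change in RNA per cell.

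Lrrc30, Fam107a, E230001N04Rik and Banp were higher in Igf2 cKO muscle, and Fam84b, 1190002N15Rik and Fam214a were lower. By edgeR's quasi-likelihood test with Benjamini-Hochberg adjustment, 6 of the 7 passed an adjusted p under 0.05, as 0.249% of all tested genes did. The 4 higher genes compare with 0.182% of genes called higher, and the 2 called lower genes (Fam84b and Fam214a) with 0.0673%. By the cut-off in the series text, an unadjusted p under 0.05 with over 1 in absolute log2 fold change, 5 of the 7 passed, against 1.58% of all genes. In 7 of 7 the 3 libraries of the one genotype lay apart from the 3 of the other, as in 15.5% of all genes. These counts follow from how the genes were picked, and nothing is read from them.

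**Figure D1:**
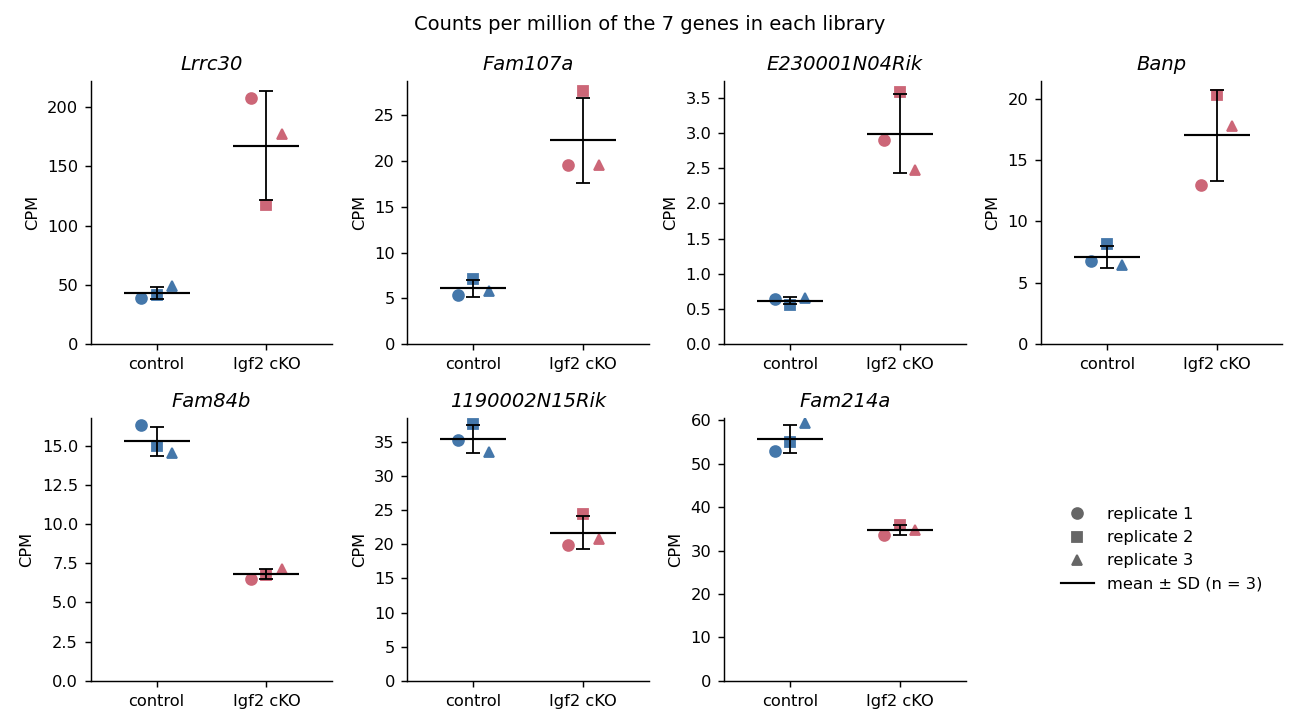
Each panel plots the level of 1 gene in CPM (vertical axis, from 0) in the 3 control (blue) and 3 Igf2 cKO (red) libraries, with marker shapes for replicate numbers and black bars for the mean ± SD. The groups do not overlap in any panel, and Lrrc30 spreads most among Igf2 cKO libraries, from 117.8 to 207.7 CPM.

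Lrrc30 had the highest level per length (FPKM) of the 7 genes in both groups, although in CPM Fam214a was higher in the controls. It is a gene of 1 exon with 1 annotated transcript (ENSMUSG00000073375, chromosome 17, 67630964 to 67632723, minus strand, GRCm38). Its level was 39.41, 41.84 and 48.85 CPM in the controls (replicates 1 to 3) against 207.7, 117.8 and 177.3 CPM in the knockouts. Every Igf2 cKO library stood above every control, and replicate 2 was the lowest of them by a wide margin. The means were 43.4 ± 4.90 and 167.6 ± 45.7 CPM (SD, n = 3 each), and the log2 ratio was 1.95 ± 0.20 (SE of the log2 fold change, Igf2 cKO over control, 95% interval 1.49 to 2.41). Igf2 cKO libraries differed among themselves by up to 1.76-fold, controls by up to 1.24-fold. The within-group SD of 0.32 on the log2 CPM scale was larger than in 91.8% of the 500 tested genes nearest in level.

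Fam107a, the actin-binding gene, moved by a similar factor from a much lower level. It spans 21750 bases with 4 annotated transcripts (ENSMUSG00000021750, chromosome 14, 8296274 to 8318023, minus strand), and the count does not separate the outermost start from the internal ones shown above. Control replicates 1 to 3 had 5.41, 7.10 and 5.76 CPM, and Igf2 cKO replicates 1 to 3 had 19.6, 27.6 and 19.6 CPM. Replicate 2 was the highest library within both groups. The means were 6.09 ± 0.894 and 22.3 ± 4.63 CPM (SD, n = 3 each), which gave a log2 ratio of 1.87 ± 0.18 (SE, 95% interval 1.45 to 2.28).

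The noncoding RNA E230001N04Rik had the largest fold change of the 7 and the fewest counts. It is annotated as a lincRNA with 2 transcripts of 1 exon each (ENSMUSG00000066170, chromosome 17, 28522720 to 28525398, plus strand). Its counts were 12, 10 and 10 in the controls (replicates 1 to 3) against 52, 58 and 42 in the knockouts. The exact Poisson 95% interval of the largest control count reached 20.96 and that of the smallest Igf2 cKO count began at 30.3, which describes the counting error of these counts only. In CPM the means were 0.621 ± 0.0534 and 2.99 ± 0.558 (SD, n = 3 each), and the log2 ratio was 2.26 ± 0.30 (SE, 95% interval 1.57 to 2.94). The within-group SD was larger than in only 5.6% of the genes nearest in level. An opposite-strand lincRNA, Gm20109, shares 332 exon bases with it and had at most 1 count in a library.

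Banp, the BEN-domain gene, is the 1 nuclear DNA-binding protein among the higher genes. It covers 79509 bases with 16 annotated transcripts, 8 of them coding (ENSMUSG00000025316, chromosome 8, 121949750 to 122029258, plus strand). Control replicates 1 to 3 had 6.77, 8.17 and 6.47 CPM, and Igf2 cKO replicates 1 to 3 had 13.0, 20.3 and 17.7 CPM. The gap between the groups was the smallest of the 4 higher genes, 0.67 on the log2 scale between the highest control and the lowest Igf2 cKO library. The means were 7.14 ± 0.905 and 17.0 ± 3.70 CPM (SD, n = 3 each), with a log2 fold change of 1.25 ± 0.19 (SE, 95% interval 0.82 to 1.68). Of 4 annotated genes that overlap its span, Gm27011 shares 252 exon bases and had at most 3 counts, and none of the 4 exceeded 10 counts in a library.

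Fam84b, the LRAT-domain gene, had the largest decrease. It lies on chromosome 15 (ENSMUSG00000072568, 60818994 to 60853778, minus strand, 2 annotated transcripts of 2 exons). Control replicates 1 to 3 had 16.3, 14.99 and 14.5 CPM, and Igf2 cKO replicates 1 to 3 had 6.53, 6.75 and 7.15 CPM. All 3 Igf2 cKO libraries were below the lowest control by 1.02 or more on the log2 scale. The means were 15.3 ± 0.919 and 6.81 ± 0.318 CPM (SD, n = 3 each), and the log2 ratio was -1.17 ± 0.13 (SE, 95% interval -1.45 to -0.88). Its libraries agreed closely, since 3.60% of the genes nearest in level had a smaller within-group SD. An opposite-strand transcript, 9930014A18Rik, shares 2474 exon bases of the 5926 counted for Fam84b. Its control mean was 1.86 ± 0.274 CPM, its Igf2 cKO mean 1.25 ± 0.125 CPM (SD, n = 3 each) and its log2 fold change -0.57 (95% interval -1.21 to 0.08, adjusted p = 0.564 by edgeR). The groups did not overlap for this transcript, as in 15.5% of all tested genes. Without a stated strand setting, reads of these genes in the shared bases cannot be told apart.

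1190002N15Rik, the secretory-pathway gene with the CG-rich promoter, was lower by a smaller factor. It has 1 annotated transcript of 3 exons (ENSMUSG00000045414, chromosome 9, 94517864 to 94538081, minus strand). Control replicates 1 to 3 had 35.3, 37.6 and 33.5 CPM, and Igf2 cKO replicates 1 to 3 had 19.9, 24.4 and 20.8 CPM. Replicate 2 was again the highest library within both groups. The means were 35.5 ± 2.06 and 21.7 ± 2.43 CPM (SD, n = 3 each), which gave a log2 ratio of -0.71 ± 0.11 (SE, 95% interval -0.96 to -0.46). It is the 1 gene of the 7 that did not pass the adjusted threshold in the main edgeR fit. It passed in 3 of 7 other fits, DESeq2 among them.

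Fam214a, the atos gene, was lower by a like amount with little spread. It spans 79585 bases on the same chromosome with 7 annotated transcripts (ENSMUSG00000034858, chromosome 9, 74952884 to 75032468, plus strand). Control replicates 1 to 3 had 52.9, 55.1 and 59.3 CPM, and Igf2 cKO replicates 1 to 3 had 33.6, 36.0 and 34.7 CPM. The Igf2 cKO libraries lay within 1.07-fold of each other, the narrowest of any of the 7 genes in either group. The means were 55.8 ± 3.24 and 34.8 ± 1.19 CPM (SD, n = 3 each), and the log2 ratio was -0.68 ± 0.09 (SE, 95% interval -0.89 to -0.48).

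**Figure D2:**
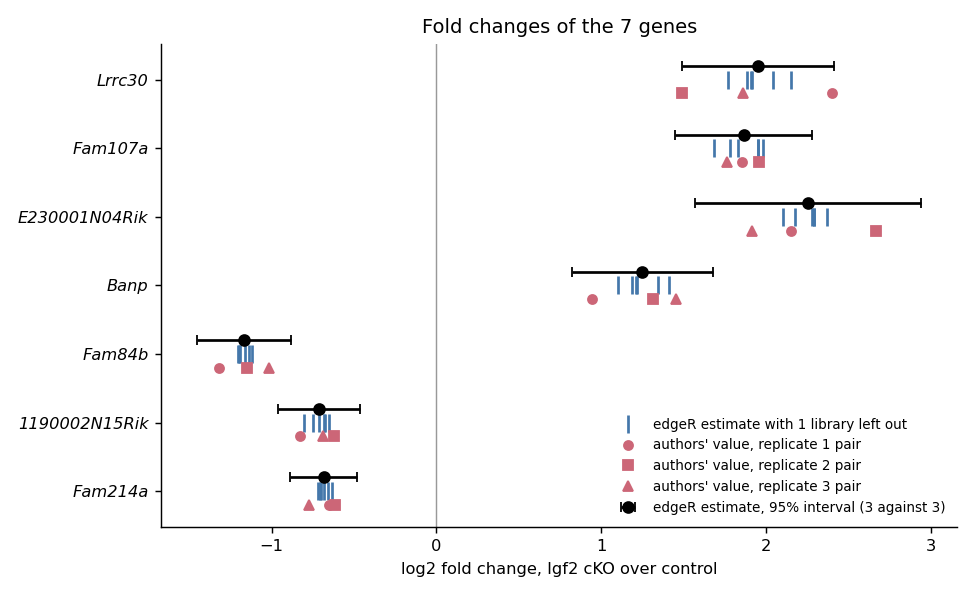
For each gene the horizontal axis gives the log2 fold change of Igf2 cKO over control. Black points are edgeR estimates with 95% intervals, blue ticks the estimates with 1 library left out, and red markers the authors' values for 3 comparisons of single libraries. All marks of a gene lie on the same side of 0, and Lrrc30 and E230001N04Rik have the widest spread of red markers.

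The authors' deposited table compares Igf2 cKO and control libraries of the same number, 1 against 1. For Lrrc30 the authors' deposited table gives log2 values of 2.40, 1.49 and 1.86 for replicates 1, 2 and 3. For E230001N04Rik the authors' deposited table gives 2.15, 2.67 and 1.92, so replicate 2 was lowest for the first gene and highest for the second. The other genes ranged less, between 1.77 and 1.96 for Fam107a, 0.94 and 1.46 for Banp, -1.32 and -1.02 for Fam84b, -0.83 and -0.62 for 1190002N15Rik, and -0.77 and -0.62 for Fam214a in the authors' deposited table. These values come from the same 6 libraries.

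Per gene length the 7 genes covered a wide range of levels. In the authors' FPKM (counts per kilobase of gene, scaled to library size), Lrrc30 stood at 24.5 ± 2.79 in controls, above 89.0% of tested genes. 1190002N15Rik (8.91 ± 0.512 FPKM) and Fam214a (8.35 ± 0.492 FPKM) came next, and their control libraries overlapped (SD, n = 3 each). Fam84b followed at 2.56 ± 0.152 FPKM, Fam107a at 1.56 ± 0.229 FPKM and Banp at 1.07 ± 0.135 FPKM, each apart from its neighbours in the order. E230001N04Rik was lowest at 0.230 ± 0.0199 FPKM, above 4.54% of tested genes.

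The order was another in Igf2 cKO muscle. Lrrc30 reached 94.7 ± 25.7 FPKM, above 97.2% of tested genes. Fam107a, below Fam84b in controls, came next at 5.72 ± 1.19 FPKM, with a library range of 5.01 to 7.09 that overlapped those of 1190002N15Rik (4.98 to 6.15) and Fam214a (5.01 to 5.39). Banp followed at 2.55 ± 0.561 FPKM. Fam84b (1.14 ± 0.0592 FPKM) and E230001N04Rik (1.11 ± 0.205 FPKM) came last with overlapping libraries (SD, n = 3 each).

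**Figure D3:**
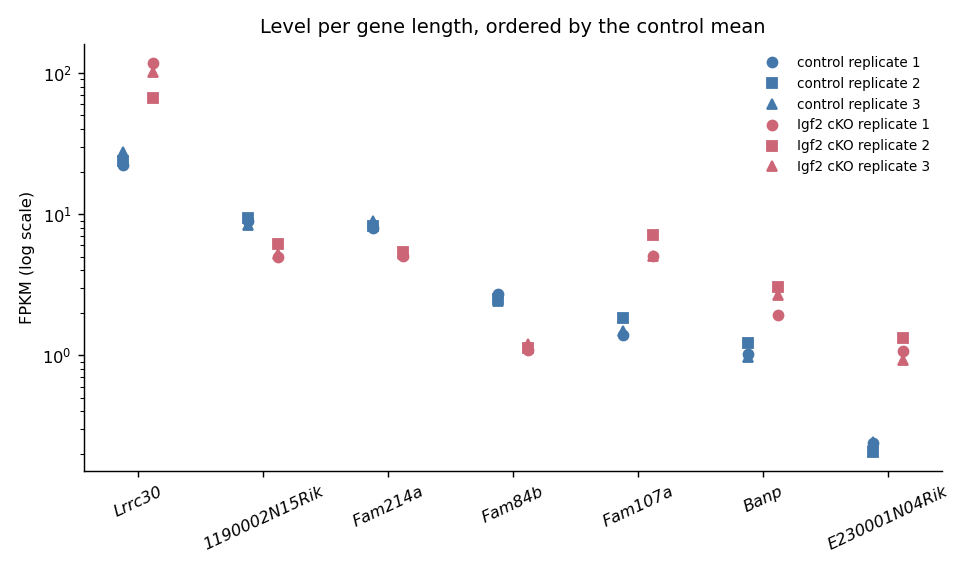
FPKM of each gene in each library (log axis), with control libraries in blue and Igf2 cKO libraries in red and the genes ordered by the control mean. Levels in controls run from 0.230 for E230001N04Rik to 24.5 for Lrrc30, and in Igf2 cKO muscle 1190002N15Rik, Fam214a and Fam107a lie close together.

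Genes related to the members by sequence, or known as partners of BANP, did not pass the test. Of 97 such listed genes, 66 were tested, and 0 were called by edgeR, 1 by DESeq2 and 0 by limma-voom. Of all 14867 tested genes, edgeR called 37 (0.249%), DESeq2 214 and limma-voom 34. At an unadjusted p under 0.05 there were 7 (10.6%), against 9.93% of all tested genes. Their median log2 fold change was 0.02, beside 0.00380 over all tested genes, with 36 above 0 and 30 below.

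Most close relatives with enough counts had a 95% interval that included 0. Fam107b, the paralog of Fam107a, had a control mean of 12.4 ± 1.89 CPM and an Igf2 cKO mean of 13.9 ± 2.10 CPM (SD, n = 3 each). Its log2 fold change was 0.16, with a 95% interval of -0.21 to 0.53. The atos paralog Fam214b had a log2 fold change of -0.15 (95% interval -0.40 to 0.09). Of the kinase-like genes related to 1190002N15Rik, Fam69a was at -0.17 (95% interval -0.56 to 0.23) and 4930578C19Rik at -0.05 (95% interval -0.35 to 0.24). From the same list, Fam69b was at -0.55 (95% interval -1.37 to 0.28). Fam69c, with 7 to 26 counts per library, was at 0.94 (95% interval 0.09 to 1.80, adjusted p = 0.45 by edgeR), and its groups did not overlap. Fam84a, the paralog of Fam84b, reached no more than 14 counts per library and failed the low-count filter. Whether a paralog differs from its member in response was not tested.

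Leucine-rich repeat genes named Lrrc numbered 68 beside Lrrc30, and 0 of 41 tested were called by edgeR (4 at an unadjusted p under 0.05), with a median log2 fold change of 0.04. Lrrc20, with the highest CPM of them (not corrected for length), had means of 200.2 ± 24.5 CPM (control) and 212.3 ± 16.3 CPM (Igf2 cKO, SD, n = 3 each). Lrrc2 followed with a log2 fold change of -0.14 (adjusted p = 0.888 by edgeR) and Lrrc58 with 0.33 (adjusted p = 0.249 by edgeR), the latter with no overlap between the groups.

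Partners of BANP were tested in 5 of 5 cases, with 0 called by edgeR. Btg3, the antiproliferative gene whose product gave BANP its name, had a log2 fold change of -0.20 (95% interval -0.54 to 0.14). Sin3a, the scaffold of a histone deacetylase complex, was chosen for mention after its values were seen. Its means were 40.3 CPM (control) and 27.7 CPM (Igf2 cKO) without overlap, and its log2 fold change was -0.54 ± 0.09 (SE). Its adjusted p was 0.0815 by edgeR and 0.00431 by DESeq2, which called 214 genes in all, against 37 by edgeR. Of 6 tested BEN-domain genes 0 were called by edgeR (1 at an unadjusted p under 0.05), with a median log2 fold change of -0.21.

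Genes with the element that BANP binds had a median close to that of all genes. The known BANP element, a palindrome around CGCG, was found in a promoter window of 137 genes of the table, and 116 of these were tested. By edgeR 0 were called and 3 had an unadjusted p under 0.05 (2.59%), while DESeq2 and limma-voom called 0. Of all 10918 tested genes with a window, 32 were called by edgeR (0.293%) and 1104 had an unadjusted p under 0.05 (10.1%). The median log2 fold change of the genes with the element was -0.00183, with quartiles of -0.10 and 0.07. Over all genes with a window the median was 0.00476 and the quartiles were -0.13 and 0.13. With the shorter core CTCGCGAG, 220 genes were tested, 0 were called by edgeR and 12 had an unadjusted p under 0.05 (5.45%).

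The genes next to the members were compared as well. For each member the genes that overlap it and the nearest tested gene on each side were taken, which gave 15 tested genes. By edgeR, DESeq2 and limma-voom 0 of the 15 were called. At an unadjusted p under 0.05 by edgeR there were 2 of the 15, Slc7a5 and Myc, against 9.93% of all tested genes. Fkbp5, the glucocorticoid-induced co-chaperone of the steroid receptor, has its start 5193 bases before E230001N04Rik on the opposite strand, so that the annotated starts face away from each other. Fkbp5 stood at 34.9, 37.9 and 42.1 CPM in the controls (replicates 1 to 3) against 54.4, 58.4 and 35.4 CPM in the knockouts. Its groups overlapped, and the log2 fold change was 0.37 ± 0.18 (SE, adjusted p = 0.549 by edgeR).

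Slc7a5, a transporter of large neutral amino acids 42056 bases upstream of Banp, was at 0.56 ± 0.21 (log2 fold change and SE, adjusted p = 0.413 by edgeR). Zfp469, on the other side of Banp, was at 0.51 (adjusted p = 0.696 by edgeR). Arpp19, which starts 5146 bases downstream of Fam214a, was at 0.15 (95% interval -0.14 to 0.44), and Rsl24d1, far upstream of Fam214a, at 0.03. The noncoding gene CT030155.1, 1632 bases downstream of Lrrc30, was at 0.04 (95% interval -0.80 to 0.89), and Arhgap28 upstream of it at -0.45 (adjusted p = 0.551 by edgeR). Near Fam84b, Myc was at -0.44 (adjusted p = 0.45 by edgeR, groups without overlap) and Trib1 at -0.15, both over 1 megabase away. Around Fam107a, Kctd6 was at -0.05 and Gm9800 at 0.19. Srpk1, downstream of E230001N04Rik, was at 0.11, and beside 1190002N15Rik, Slc9a9 was at -0.20 and Gm29397 at -0.10.

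**Figure D4:**
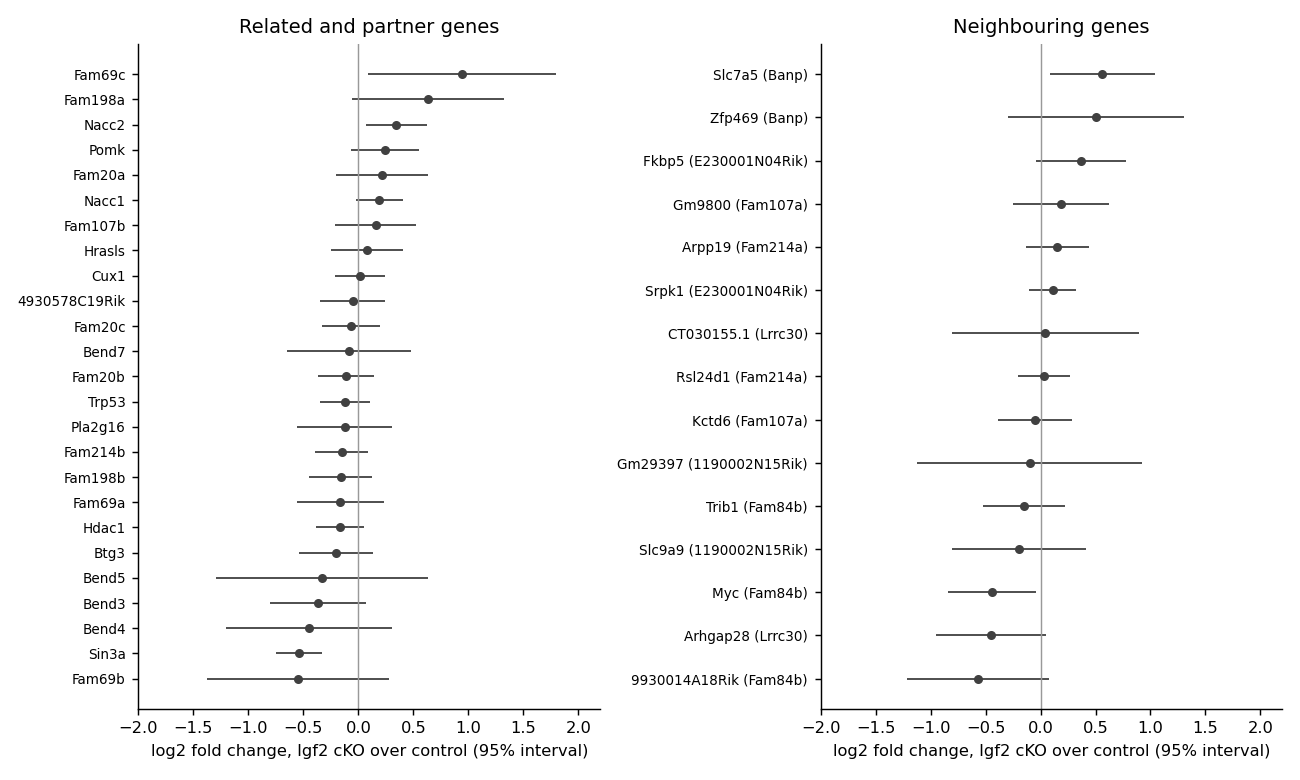
Log2 fold changes of Igf2 cKO over control with 95% intervals for related and partner genes without the Lrrc genes (left) and for neighbouring genes with their member in brackets (right). Most intervals include 0. On the left Fam69c at 0.94 lies highest, with a wide interval above 0, and Sin3a at -0.54 has a narrow interval below 0. Slc7a5 at 0.56 lies highest among neighbours.

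Profiles over the 6 libraries were compared by the root mean square (RMS) difference of log2 CPM after each gene's mean was subtracted, among 13770 genes with a mean of at least 1 CPM. Among the members, 1190002N15Rik and Fam214a were most alike, at an RMS difference of 0.11. Fam107a and E230001N04Rik differed by 0.22, while Lrrc30 and Banp, both higher in Igf2 cKO muscle, differed by 0.57. Outside the 7 genes Lrrc30 was nearest to Tsc22d3 (0.28) and Angptl7 (0.33), and both Fam107a and E230001N04Rik to Fgfr3 (0.20 and 0.30) and Nr4a3 (0.24 and 0.33). Banp was nearest to Syn2 and Errfi1 (0.14 each), and Fam84b to Rassf10 (0.12) and Gm26526 (0.15). For 1190002N15Rik these were Cnrip1 and Bub1b (0.06 each), and for Fam214a Piezo2 (0.05) and Cyp2j9 (0.07). The median gene lay between 0.39 (Fam214a) and 1.06 (E230001N04Rik) from a member. The difference between the genotypes makes up most of each of these profiles, so a small RMS difference largely restates a like fold change.

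Leaving out a library moved the calls more than the values. Without control replicates 1, 2 and 3 in turn, 0, 1 and 2 of the 7 genes passed the adjusted threshold. Over all genes 8, 15 and 13 passed, against 37 with every library. Without Igf2 cKO replicates 1, 2 and 3 it was 4, 5 and 3 of the 7 genes, and 39, 68 and 17 over all genes. Lrrc30, Fam107a and Fam84b were called in 4 of these 6 fits each, Banp, Fam214a and 1190002N15Rik in 1 and E230001N04Rik in 0. The log2 fold changes kept their sign in each of these fits. Lrrc30 ranged from 1.77 to 2.15, E230001N04Rik from 2.11 to 2.37, Banp from 1.10 to 1.41, and Fam84b from -1.20 to -1.12.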

How the data were processed

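Muscle RNA of 3 control and 3 Igf2 cKO mice was measured by RNA-seq, and the titles gave the groups and replicate numbers. According to the labels' protocols, a commercial service sequenced the RNA on an Illumina NovaSeq. Per the file headers, the authors deposited a raw count and an FPKM per gene and library, with a gene length, and log2 fold changes for 3 comparisons of single libraries. For the aligner, counting tool, strand setting and annotation, nothing is given in the sources used here. A further 6 per-sample columns, named unlike the titles, were not used. Of 54409 gene identifiers found in GENCODE M21, 98.3% had identical start and end, and coordinates are read as GRCm38.

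Counts were fitted with edgeR 4.0.16 in R 4.3.3 (quasi-likelihood, genotype as the single term, TMM factors, filterByExpr, Benjamini-Hochberg over 14867 genes, calls at an adjusted p under 0.05). SEs come from the F statistic. CPM are counts scaled by TMM library sizes. With 3 libraries a group, p-values weigh the genotype difference against the spread between these libraries, which the fit moderates over all genes. The fit was tested on simulated data, in which only genes with a mean of at least 1 CPM were changed. It called 17.9% of genes changed 1.5-fold, 61.2% of those changed 2-fold and 89.1% of those changed 4-fold. These shares do not cover tested genes of lower level. A gene that was not called may therefore still have changed. Alternatives were other size factors and filters, DESeq2 1.42.0, limma-voom (limma 3.58.1), the replicate number as a block and leaving out each library.

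The members and gene lists were chosen with earlier results of these data known. The named genes are the members, Igf2, the closest paralogs, the 3 Lrrc genes of highest CPM, neighbours, and the 2 genes nearest in profile (log2 CPM, prior count 2). Sin3a, Fam69b, Fam69c and single markers were named after their values were seen. CG dinucleotide counts were added after the sequences were seen. Promoters are from RefSeq (GRCm38.p6), of whose 27025 genes a part was matched by symbol or synonym.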

Additional observations from a re-analysis of the deposited data

How the results depend on the processing

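The log2 fold changes of the 7 genes kept their sign and moved by less than the spread between replicates under every alternative run. The number of the 7 called by edgeR was 6, between 0 and 5 with 1 library left out. It was 7 with upper quartile factors, with no low-count filter and with DESeq2. It was 5 with limma-voom and with a filter of at least 1 CPM in 3 libraries, both without Banp and 1190002N15Rik. Over all genes 37 were called, between 8 and 68 with 1 library left out, 282 with no low-count filter, 214 with DESeq2, 62 at an adjusted p under 0.1 and 235 by the rule of the series. The cause was not tested. Of the related and partner genes 0 were called, and 1 (Sin3a) with no low-count filter, with DESeq2 and at an adjusted p under 0.1. Of the genes with the BANP element 0 were called, and 1 with no low-count filter. Control levels taken as CPM per kilobase in place of FPKM moved by less than 1 SD for each of the 7 genes.

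With the replicate number as a block, 35 genes were called in all and 4 of the 7, without E230001N04Rik, Fam214a and 1190002N15Rik. The block made no call among the related, neighbouring or BANP element genes. Deviations of same-numbered libraries correlated at 0.163, 0.0581 and -0.0425 for numbers 1, 2 and 3, and those of other pairs at -0.183 to 0.122. With 3 libraries a group, these values cannot show whether same-numbered libraries share more than a number.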
